A study of Mus musculus with 10 samples.

Results

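The mitochondrial genome complex I mRNAs are the 7 transcripts mt-Nd1, mt-Nd2, mt-Nd3, mt-Nd4, mt-Nd4l, mt-Nd5 and mt-Nd6, here called the mt-Nd mRNAs. They were taken from a table of single RNA molecules as every transcript located on the mitochondrial genome whose gene name starts with mt-Nd, and reads were kept when their poly(A) tail estimate carried the quality tag PASS. All 7 had kept reads, out of 13647 genes with at least 1 such read. The RNA came from undifferentiated P19 cells, a wild-type mouse embryonal carcinoma line. Cells received either an siRNA against Larp1 (siLarp1) or a pool of scrambled siRNAs (siCtl), and RNA was taken 24 h or 48 h later, with a repeat transfection at 24 h for the 48 h cells of both treatments. Each treatment had 3 libraries at 24 h, named 19, 21 and 22, and 2 at 48 h, named 24 and 25. Polyadenylated RNA was selected on oligo(dT) beads and sequenced directly as RNA on a Nanopore device, so molecules without a tail were not sampled.

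Complex I passes electrons from NADH to ubiquinone and pumps protons across the inner mitochondrial membrane. Most of its subunits are made from nuclear genes, and the mt-Nd mRNAs encode the hydrophobic core of its membrane arm. Mitochondrial mRNAs are cut from long transcripts of each strand of the circular genome, and a mitochondrial poly(A) polymerase adds short tails that in some mRNAs complete the stop codon. LARP1 acts in the cytoplasm, on mRNAs that start with an oligopyrimidine (TOP) stretch. The comparison asks whether mRNAs made and tailed inside the mitochondrion change when Larp1 is lowered.

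The libraries held 117925 to 441598 kept reads, and each siLarp1 library at 24 h was shallower than each siCtl library at 24 h. Mitochondrial transcripts took 3.21% to 3.95% of the kept reads of a library. Larp1 itself averaged 78.3 ± 5.01 RPM (reads scaled to 1000000 kept reads in a library; SD, n = 3) in siCtl and 31.0 ± 12.3 (n = 3) in siLarp1 at 24 h, and 140 ± 30.1 (n = 2) in siCtl and 20.8 ± 4.36 (n = 2) in siLarp1 at 48 h. Over both time points Larp1 was lower by limma (log2 fold change -1.90, SE 0.32, Benjamini-Hochberg adjusted p = 0.00119). Within a time point it did not pass. Its log2 fold change was -1.35 (SE 0.43, limma adjusted p = 0.865) at 24 h and -2.52 (SE 0.56, limma adjusted p = 0.628) at 48 h. The abundance tests within a time point thus missed the siRNA target itself. Of 10 pluripotency markers 9 had reads, among them Pou5f1 at 2185 to 2910 RPM, and Zfp42 was at 0. The summed pluripotency list was at 3132 to 4188 RPM, and 7 neuronal genes summed to 245.9 to 392.9 RPM. A list of 4 fibroblast or mesoderm genes summed to 33.4 to 391 RPM, with 236 of its 257 reads on T. T averaged 47.5 RPM in siCtl and 62.3 in siLarp1 at 24 h, and 219 and 291 RPM at 48 h. The endoderm genes Sox17 and Afp were at 0, and Gata4 and Gata6 had 1 read each. The treatments were sequenced as separate pools at 24 h, where the pool cannot be told apart from the treatment, and all 4 libraries at 48 h shared 1 pool.

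All 7 genes lie on chromosome M (GRCm38), each as 1 exon without an intron. The last 30 bases given here are annotated gene ends, and the tail of a molecule need not be joined there. Kept mt-Nd1 alignments had a median end at 950 of 957 nt. mt-Nd1 (positions 2751 to 3707, plus strand), mt-Nd2 (3914 to 4951, plus) and mt-Nd3 (9459 to 9806, plus) end on a whole stop codon, given in capitals. mt-Nd4 (10167 to 11544, plus) is 1378 nt long, which leaves 1 base after its last whole codon, also in capitals.
mt-Nd1: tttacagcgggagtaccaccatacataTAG
mt-Nd2: ctacccctagccccccaactaattaccTAG
mt-Nd3: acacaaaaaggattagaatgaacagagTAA
mt-Nd4: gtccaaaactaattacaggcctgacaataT
The last base of mt-Nd4 is the first base of a stop codon that the added adenosines complete. Among the last 30 bases of the 7 mRNAs, 8 (mt-Nd2) to 17 (mt-Nd3) were A.

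The remaining 3 genes overlap a neighbour, and few of their alignments carried the tag PASS. mt-Nd4l (9877 to 10173, plus) shares 7 bases with the start of mt-Nd4, at positions 10167 to 10173. mt-Nd5 (11742 to 13565, plus) shares 14 bases, at positions 13552 to 13565, with the end of mt-Nd6 (13552 to 14070), the only member on the minus strand. The lines below give the ends that meet, each in its own gene's direction, with the shared bases in capitals.
end of mt-Nd4l: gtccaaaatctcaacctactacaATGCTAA
start of mt-Nd4: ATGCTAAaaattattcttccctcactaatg
end of mt-Nd5: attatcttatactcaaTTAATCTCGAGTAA
end of mt-Nd6: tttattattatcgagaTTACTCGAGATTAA

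Single molecules crossed both overlaps. Over all quality tags, 2788 reads aligned to both mt-Nd4l and mt-Nd4, which is 95.5% of the mt-Nd4l reads and 58.5% of the mt-Nd4 reads. A further 1772 reads aligned to both mt-Nd5 and mt-Nd6, or 81.1% of the mt-Nd5 and 84.4% of the mt-Nd6 reads. Each shared read carried the same tail value in both lines (100%), since a molecule has 1 tail. mt-Nd4l and mt-Nd4 are known to share a bicistronic mRNA, and the known mt-Nd5 mRNA runs on past its stop codon, opposite to mt-Nd6. No strand is given for the reads, so whether an alignment to mt-Nd6 was in sense or antisense was not tested. The genes lie on opposite strands, so a read shared by both is antisense to either mt-Nd5 or mt-Nd6. Values given below for mt-Nd6 can thus be those of mt-Nd5 molecules. Of the kept mt-Nd6 alignments, 96.6% began within 25 nt of the 5′ end of mt-Nd6 but only 45.9% ended within 25 nt of its 3′ end, while 85.4% (mt-Nd1) to 99.6% (mt-Nd3) of the kept alignments of mt-Nd1, mt-Nd2, mt-Nd3 and mt-Nd4 ended within 25 nt of the 3′ end. Over all tags 88.4% of the mt-Nd6 alignments did so, so the low share belongs to the PASS reads.

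The tag SUFFCLIP, which the tail caller gives when a long stretch at the 3′ end of a read lies outside the alignment, followed these overlaps. It took 78.6% of the mt-Nd4l, 65.4% of the mt-Nd5 and 66.2% of the mt-Nd6 alignments, against 0.61% (mt-Nd1) to 2.13% (mt-Nd2) in the others. PASS left 16 reads of mt-Nd4l, 321 of mt-Nd5 and 290 of mt-Nd6, but 6534 of mt-Nd1, 2928 of mt-Nd2, 2170 of mt-Nd3 and 3722 of mt-Nd4. Only 17.8% of the kept mt-Nd5 alignments ended within 25 nt of the 3′ end of the gene, compared with 99.1% of its SUFFCLIP alignments. Kept reads of mt-Nd5 are therefore mostly molecules whose alignment stops inside the gene. The levels of mt-Nd4l, mt-Nd5 and mt-Nd6 below were given for PASS reads first and then with SUFFCLIP reads added.

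**Figure D1:**
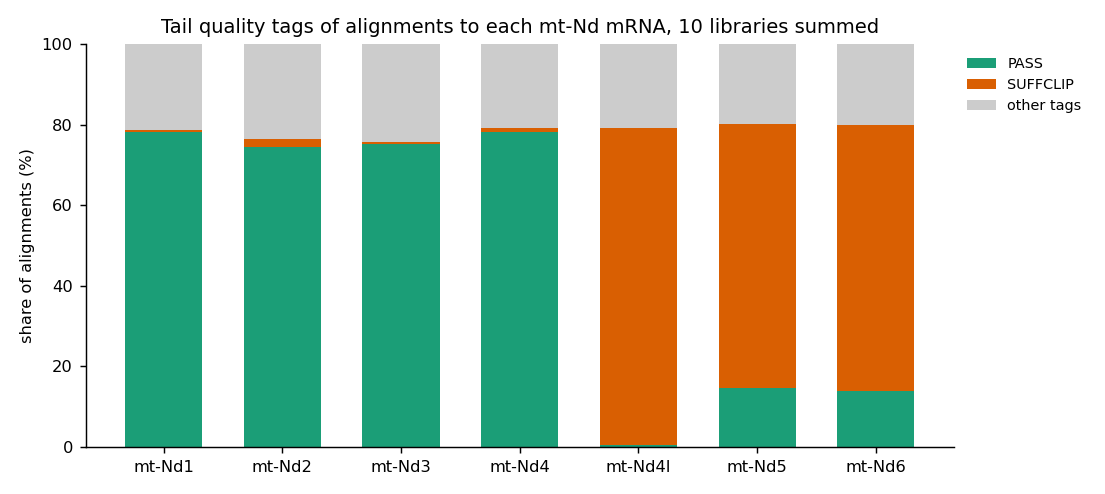
Share of alignments (%, y axis) with the tail quality tags PASS, SUFFCLIP and all others for each mt-Nd mRNA, summed over 10 libraries. PASS takes 74.3% to 78.1% of mt-Nd1, mt-Nd2, mt-Nd3 and mt-Nd4, but 0.55% of mt-Nd4l, 14.7% of mt-Nd5 and 13.8% of mt-Nd6, where SUFFCLIP is the most frequent tag.

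Some reads could not be placed with certainty because the nuclear genome holds copies of mitochondrial genes. Gm28438, an unprocessed pseudogene, matched 99.1% of the length of mt-Nd3 at 99.7% identity, and all kept mt-Nd3 alignments (100%) had a mapping quality under 10. Gm10222 matched 99.0% of mt-Nd4l and Gm28439 matched 63.6% of mt-Nd4, both at 100% identity. Gm28438 held 83 kept reads against 2170 for mt-Nd3, and Gm28439 held 90 against 3722 for mt-Nd4. Gm10222 held 10, close to the 16 of mt-Nd4l, and over all tags 85 reads against 2918. mt-Nd3 is thus measured as the sum of what was assigned to it, and how the reads divide between the gene and its copy is uncertain.

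Together the mt-Nd mRNAs took 0.573% to 0.903% of the kept reads of a library. Per kb of annotated gene, mt-Nd1 (mean over 10 libraries 3176 RPM per kb) and mt-Nd3 (2807 RPM per kb) had the highest levels among PASS reads. The mt-Nd1 product forms part of the ubiquinone binding chamber, and that of mt-Nd3 carries a loop near it. mt-Nd2 (1339 RPM per kb) and mt-Nd4 (1254 RPM per kb), 2 of the antiporter-like proton pumping subunits, followed. Their ranges over the libraries, 1001 to 1691 and 1024 to 1428 RPM per kb, overlapped. mt-Nd6, a small subunit next to the antiporter-like row, averaged 272 RPM per kb and mt-Nd5, the last antiporter-like subunit of the arm, 81.8 RPM per kb. mt-Nd4l, another small subunit, averaged 27.7 RPM per kb. Each read is 1 molecule, so division by length raises the level of a short mRNA. Without it the order differed, with mt-Nd1 at 3040, mt-Nd4 at 1728, mt-Nd2 at 1390 and mt-Nd3 at 977 RPM. mt-Nd5 averaged 149 and mt-Nd6 141 RPM. With SUFFCLIP reads added the order per kb was another, with mt-Nd4l first at 3534 RPM per kb. mt-Nd1 was at 3161, mt-Nd3 at 2798, alignments to mt-Nd6 at 1571 and mt-Nd5 last at 465 RPM per kb. Between them, mt-Nd2 was at 1361 and mt-Nd4 at 1257 RPM per kb. Most mt-Nd4l reads were molecules shared with mt-Nd4, and most mt-Nd5 and mt-Nd6 reads were shared with each other. Within these pairs the order per kb largely reflects the gene length used as divisor.

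The abundance of the mt-Nd mRNAs did not differ detectably between siLarp1 and siCtl. mt-Nd1 was at 3187, 2675 and 3474 RPM in siCtl libraries 19, 21 and 22 and at 3001, 2999 and 3709 RPM in the siLarp1 libraries of the same numbers. At 48 h it was at 3375 and 2048 RPM in siCtl libraries 24 and 25 and at 3354 and 2575 RPM in siLarp1. The groups overlapped at both times, with library 22 highest in both treatments at 24 h and library 24 above library 25 in both at 48 h. The log2 fold change of mt-Nd1 was 0.06 (SE 0.08) at 24 h and 0.25 (SE 0.17) at 48 h by limma, with Benjamini-Hochberg adjusted p-values of 0.987 and 0.893.

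mt-Nd2 averaged 1332 ± 259 RPM in siCtl (SD, n = 3) and 1367 ± 258 in siLarp1 (n = 3) at 24 h, and 1417 ± 479 (n = 2) and 1483 ± 170 (n = 2) at 48 h. mt-Nd4 averaged 1771 ± 284 and 1740 ± 227 RPM at 24 h, and 1812 ± 208 and 1563 ± 215 RPM at 48 h. For mt-Nd4 at 48 h the siCtl libraries were at 1959 and 1665 RPM and the siLarp1 libraries at 1715 and 1411 RPM, so that the groups still overlapped. mt-Nd3 averaged 1080 ± 200 and 1077 ± 319 RPM at 24 h, and 809 ± 176 and 841 ± 242 RPM at 48 h. Treatment means of mt-Nd2 and mt-Nd3 thus differed by less than the SD within either group at both times, as did those of mt-Nd4 at 24 h.

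Among PASS reads mt-Nd5 averaged 160 ± 55.6 RPM in siCtl and 132 ± 27.0 in siLarp1 at 24 h, and 147 ± 32.3 and 160 ± 24.0 RPM at 48 h. mt-Nd6 was at 95.6, 120 and 140 RPM in siCtl and at 144, 200 and 140 RPM in siLarp1 at 24 h, which overlapped only at the edge, in library 22 of both treatments. Its log2 fold change of 0.42 (SE 0.22) at 24 h was the largest of the 6 mRNAs tested and had a limma Benjamini-Hochberg adjusted p of 0.898. At 48 h its log2 fold change was 0.01 (SE 0.36). mt-Nd4l had 0 to 5 PASS reads in a library and was not tested. It had no PASS reads in siCtl at 48 h, and 2 and 3 in siLarp1.

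Of the 6 mt-Nd mRNAs tested for abundance, 0 passed an adjusted p of 0.05 (limma voom) at 24 h, where 0 of 4828 genes did (0%), and 0 at 48 h, where 0 of 2725 genes did (0%). Over both time points 0 of 6 passed, against 7 of 2719 genes (0.257%). At an unadjusted p under 0.05 there were also 0 of the 6 at either time, against 5.43% and 4.81% of all genes, and 0 of 6 over both times (6.88% of all genes) or for the difference between times (4.08%). The log2 fold changes ran from -0.21 to 0.42 at 24 h with a median of 0.02, beside a median of 0.01 over all genes, and from -0.18 to 0.25 at 48 h with a median of 0.14, beside 0.02. At 24 h the 95% confidence interval of mt-Nd1, the deepest member, ran from -0.11 to 0.23 in log2 units, and that of mt-Nd6 from -0.03 to 0.88. In none of these 6 were siCtl and siLarp1 levels free of overlap, where 10.7% of genes at 24 h and 33.6% at 48 h were.

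**Figure D2:**
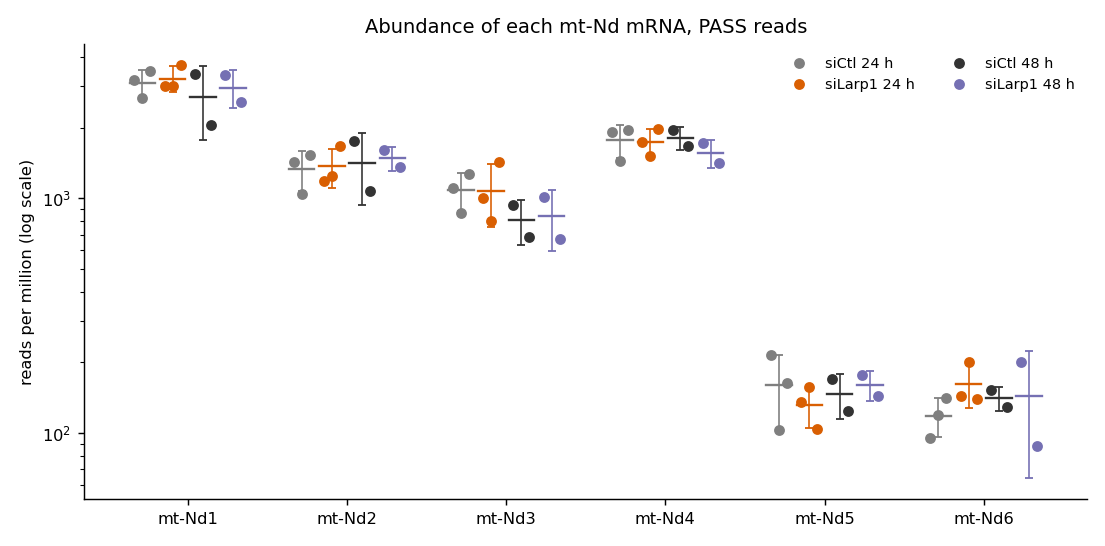
Abundance of 6 mt-Nd mRNAs in RPM (y axis, log scale), with 1 point per library, group means as lines and SD as bars (3 libraries per group at 24 h, 2 at 48 h). siCtl and siLarp1 points overlap in each mRNA at each time, while mt-Nd5 and mt-Nd6 lie at 87.7 to 214 RPM, below the 670 to 3709 RPM of the other 4.

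In bulk RNA, fewer cells with an mRNA and less of it per cell cannot be told apart. Fold changes are relative to all kept reads, so a change shared by all mRNAs would not be seen.

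Tails of the mt-Nd mRNAs were short and narrowly spread. Their pooled median tail was 46.7 to 51.5 nt in a library, and the middle 50% of tails spanned 12.9 to 15.2 nt. The other mitochondrial mRNAs had pooled medians of 62.2 to 65.7 nt, and nuclear protein-coding mRNAs had 97.0 to 104 nt with a middle 50% of 69.9 to 72.2 nt. The mt-Nd median lay below the other mitochondrial median in 10 of 10 libraries. Between 90.5% and 95.2% of mt-Nd tails were 30 to 90 nt long, against 36.8% to 41.8% of nuclear tails. Tails under 30 nt made up 3.08% to 7.77% of mt-Nd tails and 0.981% to 2.198% of the tails of the other mitochondrial mRNAs. RNA standards sequenced with the samples, named 16, 32, 64, 128 and 256, gave medians of 28.1, 34.5, 58.6, 59.1 and 110 nt. They had 61 to 234 reads each. The paper lists no standard named 128 or 256, and it added the tails of some standards in vitro. A name thus need not be the true tail length. The medians of those named 64 and 128 were alike, and whether such lengths can be told apart cannot be read from them. The middle 50% of the one named 16 ran from 17.4 to 60.9 nt. Tail lengths, also relative to each other, and the class under 30 nt are therefore approximate.

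**Figure D3:**
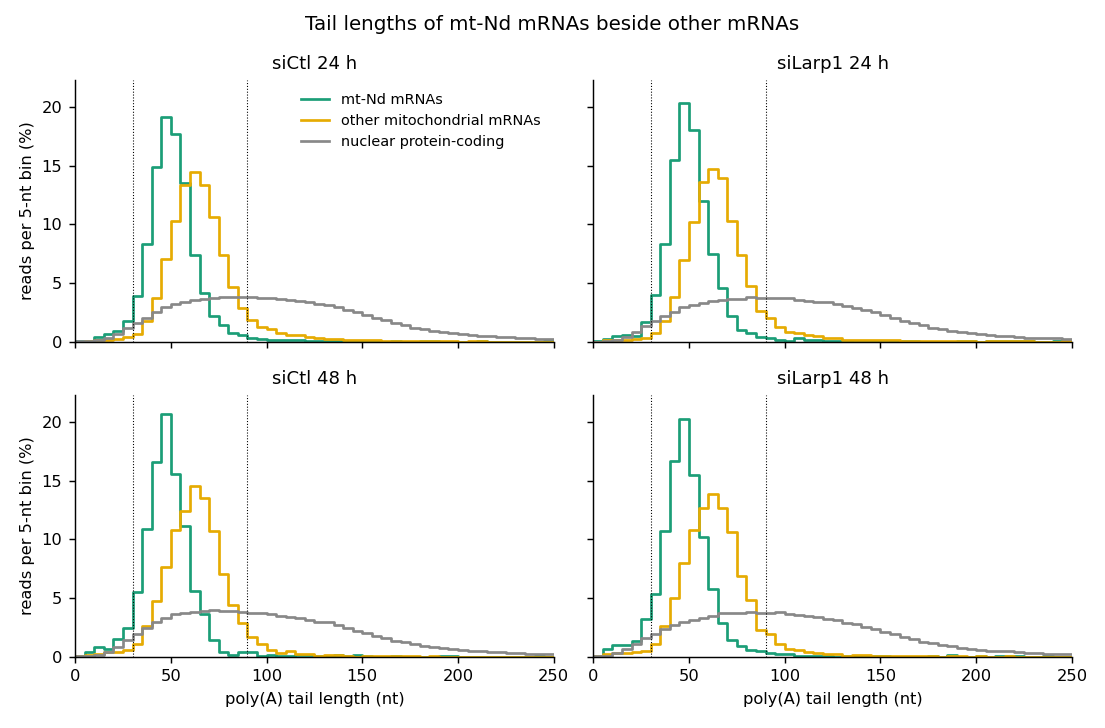
Distribution of poly(A) tail lengths (x axis, nt) as the share of reads per 5-nt bin (y axis, %), averaged over the libraries of each group, with dotted lines at 30 and 90 nt. In all 4 groups the mt-Nd mRNAs peak below the other mitochondrial mRNAs, and nuclear protein-coding mRNAs spread over a wider range.

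Within the family the median tails fell into 3 pairs, whose order was alike in nearly all libraries. mt-Nd4 had the longest median over all its reads (51.8 nt), followed by mt-Nd3 (50.8 nt), mt-Nd1 (48.6 nt) and mt-Nd2 (48.3 nt), and mt-Nd5 (43.8 nt) and mt-Nd6 (43.1 nt) had the shortest. Both mt-Nd4 and mt-Nd3 exceeded both mt-Nd1 and mt-Nd2 in 10 of 10 libraries. mt-Nd4 was 2.83 ± 1.07 nt longer than mt-Nd1 and 3.12 ± 1.14 nt longer than mt-Nd2 (SD over 10 libraries). Within 3 pairs of neighbours the order was not kept, since mt-Nd4 exceeded mt-Nd3 in 7 of 10 libraries, mt-Nd1 exceeded mt-Nd2 in 4 of 10 and mt-Nd5 exceeded mt-Nd6 in 5 of 10. mt-Nd6 was shorter than each of mt-Nd1, mt-Nd2, mt-Nd3 and mt-Nd4 in 10 of 10 libraries, and mt-Nd5 was shorter than mt-Nd1 in 9 of 10 and than the other 3 in 10 of 10. The share of PASS tails under 30 nt ran from 1.69% in mt-Nd4 over 3.50% in mt-Nd3, 3.76% in mt-Nd1 and 7.65% in mt-Nd2 to 11.03% in mt-Nd6 and 20.2% in mt-Nd5. With SUFFCLIP reads added, mt-Nd5 and mt-Nd6 were closer. Their mean shares at 24 h were 11.6% and 10.2% in siCtl and 10.4% and 9.91% in siLarp1. At 48 h they were 22.2% and 21.2% in siCtl and 18.8% and 15.6% in siLarp1. mt-Nd2 and mt-Nd1 thus had near equal medians but differed about 2-fold in this class.

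**Figure D4:**
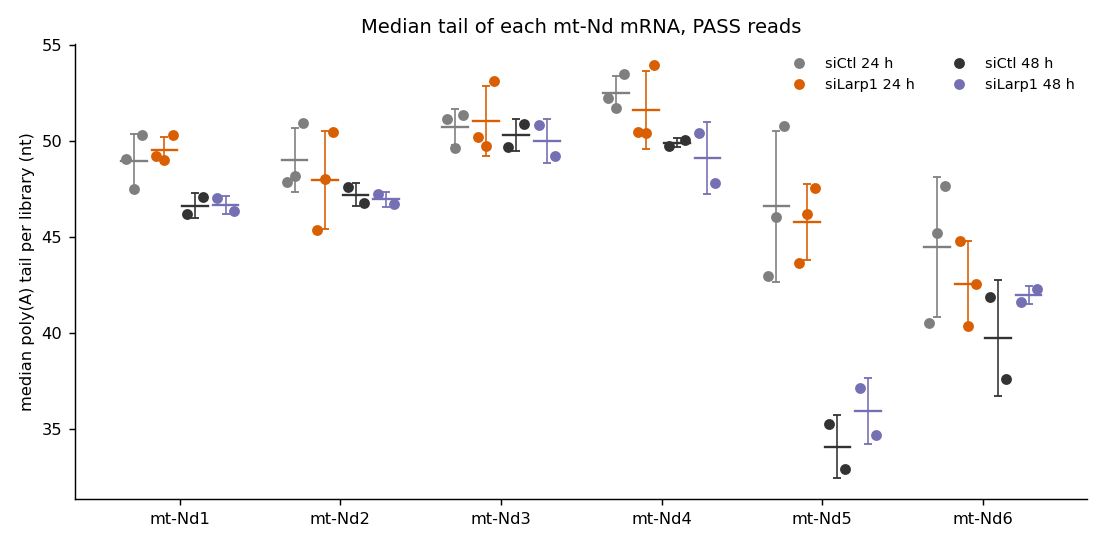
Median poly(A) tail (y axis, nt, not starting at 0) of 6 mt-Nd mRNAs, with 1 point per library, group means as lines and SD as bars. mt-Nd1, mt-Nd2, mt-Nd3 and mt-Nd4 lie between 45.4 and 54.0 nt in all libraries, and siCtl and siLarp1 points overlap at each time. mt-Nd5 falls to 32.9 to 37.2 nt in the 4 libraries at 48 h, on 18 to 30 PASS reads in each. With SUFFCLIP reads added, these 4 mt-Nd5 medians were 39.25 to 40.53 nt.

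Median tails of the mt-Nd mRNAs did not differ detectably between siLarp1 and siCtl. For mt-Nd4 the medians were 52.3, 51.7 and 53.5 nt in siCtl libraries 19, 21 and 22 and 50.5, 50.5 and 54.0 nt in siLarp1 at 24 h, and 49.8 and 50.1 nt in siCtl and 50.5 and 47.8 nt in siLarp1 at 48 h. For mt-Nd3 they were 51.2, 49.7 and 51.4 nt in siCtl and 50.2, 49.8 and 53.1 nt in siLarp1 at 24 h, and 49.7 and 50.9 nt in siCtl and 50.8 and 49.2 nt in siLarp1 at 48 h. Library 22 had the longest tails in both treatments for both mRNAs, and the groups overlapped at both times.

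For mt-Nd1 the medians were 49.1, 47.5 and 50.4 nt in siCtl and 49.3, 49.0 and 50.3 nt in siLarp1 at 24 h, and 46.2 and 47.1 nt in siCtl and 47.0 and 46.4 nt in siLarp1 at 48 h. For mt-Nd2 they were 47.9, 48.2 and 50.9 nt in siCtl and 45.4, 48.0 and 50.5 nt in siLarp1 at 24 h, and 47.7 and 46.8 nt in siCtl and 47.3 and 46.7 nt in siLarp1 at 48 h. All 4 libraries at 48 h lay below all 6 at 24 h for mt-Nd1, in either treatment. Time and sequencing pool cannot be told apart in this.

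The differences siLarp1 minus siCtl of the 6 mRNAs ran from -1.92 nt (mt-Nd6) to 0.56 nt (mt-Nd1) at 24 h and from -0.79 nt (mt-Nd4) to 2.23 nt (mt-Nd6) at 48 h. Their median was -0.84 nt at 24 h, beside 1.38 nt over all genes, and -0.09 nt at 48 h, beside 3.43 nt. By limma 0 of 6 passed an adjusted p of 0.05 at 24 h, where 0 of 2589 genes did (0%), and 0 at 48 h, where 0 of 2436 did (0%). At an unadjusted p under 0.05 there were also 0 of the 6, against 6.53% and 5.25% of all genes, and 0 of 6 over both times (7.43%) or for the difference between times (5.66%). The 95% limma interval of mt-Nd1 at 24 h ran from -4.48 to 5.59 nt. The exact permutation test, on the libraries of a member alone, gave p-values of 0.4 to 0.9 at 24 h, where 0.1 is the smallest that 3 against 3 libraries allow. In none of these 6 were the groups free of overlap, where 11.6% of genes at 24 h and 33.8% at 48 h were.

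For the share of tails under 30 nt, mt-Nd3 had the lowest unadjusted p-value of the 6 mRNAs at both times. At 24 h, 12 of 337, 14 of 311 and 22 of 558 mt-Nd3 reads had such tails in siCtl (3.561%, 4.502% and 3.943%), and 5 of 126, 0 of 112 and 4 of 234 in siLarp1 (3.97%, 0% and 1.71%). At 48 h it was 2 of 110 and 2 of 127 in siCtl (1.82% and 1.57%), and 7 of 171 and 8 of 84 in siLarp1 (4.09% and 9.52%). A count of 0 in 112 reads allows a share of up to 2.68%, for counting error only. The siLarp1 share was thus lower on average at 24 h, with overlapping groups, and higher at 48 h, without overlap. In log2 odds the siLarp1 effect was -1.44 (SE 0.70, limma adjusted p = 0.345) at 24 h and 1.73 (SE 0.73, adjusted p = 0.663) at 48 h, the first of these with 0 reads of the class in a library. Without that library, siLarp1 library 21, the 24 h value was -0.53, and without siLarp1 library 19 it was -2.20, while the 48 h value was 1.09 without siLarp1 library 25. Reads with a barcode confidence of at least 0.9 gave -0.67 and 1.42, and a limit of 40 nt in place of 30 gave -0.05 (SE 0.39) and 0.29 (SE 0.55), so that the pattern was not seen at that limit.

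Only 2.35% of mt-Nd3 tails were over 90 nt. The share of 30 to 90 nt is thus nearly the complement of that under 30 nt. Its reverse pattern in mt-Nd3 is not a separate result. Tails of 30 to 90 nt took 94.1%, 93.6% and 93.7% in siCtl and 96.0%, 99.1% and 95.7% in siLarp1 at 24 h. At 48 h they took 95.5% and 92.9% in siCtl and 92.4% and 89.3% in siLarp1. Each siLarp1 library lay above each siCtl library at 24 h and below each at 48 h. The log2 odds differed by 1.14 (SE 0.34, unadjusted p = 0.00411, limma adjusted p = 0.712) at 24 h, whereas at 48 h the difference was -0.68 (SE 0.30, limma adjusted p = 0.689). Subtracting the 24 h effect from the 48 h effect gave -1.82 (SE 0.50, unadjusted p = 0.0013, limma adjusted p = 0.692). With the library number as a replicate block this difference passed the threshold (limma adjusted p = 0.00711), and it was then the only 1 of 2139 genes to do so. Under the other 19 alternatives its adjusted p was 0.235 to 0.978. Single libraries moved these values, with 0.55 at 24 h without siLarp1 library 21, -0.37 at 48 h without siCtl library 24 and -0.40 at 48 h without siLarp1 library 25.

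mt-Nd6 had the widest change in share, on few reads. Its tails under 30 nt took 33.3% and 25% in siCtl and 8.82% and 9.09% in siLarp1 at 48 h, from 18, 24, 34 and 11 PASS reads. The groups did not overlap, and the log2 odds differed by -1.76 (SE 0.99, limma adjusted p = 0.795). With SUFFCLIP reads added, from 106 to 168 reads in a library, the shares were 22.5% and 19.9% in siCtl and 14.3% and 17.0% in siLarp1. The groups again did not overlap, and the log2 odds differed by -0.53 (SE 0.73, limma adjusted p = 0.951). At 24 h the PASS shares were 6.90%, 9.30% and 6.45% in siCtl and 0%, 14.3% and 8.70% in siLarp1, and overlapped, where 0 of 18 reads allows up to 16.7%.

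In mt-Nd1, 2.48%, 4.69% and 2.41% of tails were under 30 nt in siCtl and 2.93%, 4.05% and 2.63% in siLarp1 at 24 h, and 5.53% and 4.47% in siCtl and 6.70% and 5.88% in siLarp1 at 48 h. Library 21 was highest in both treatments at 24 h, and at 48 h both siLarp1 libraries lay above both siCtl libraries. Log2 odds differed by 0.35 (SE 0.44, limma adjusted p = 0.932) at 48 h. Tails of 30 to 90 nt of mt-Nd1 took 93.5% and 94.2% in siCtl and 91.5% and 91.3% in siLarp1 at 48 h, a log2 odds difference of -0.51 (SE 0.17, unadjusted p = 0.00587, limma adjusted p = 0.65). mt-Nd2 averaged 6.67% ± 2.01 in siCtl and 6.09% ± 2.04 in siLarp1 at 24 h (SD, n = 3), and 10.1% ± 0.59 and 10.8% ± 4.54 at 48 h (n = 2). mt-Nd4 averaged 1.252% ± 0.44 and 1.54% ± 1.42 at 24 h, and 1.84% ± 0.15 and 2.74% ± 1.48 at 48 h. mt-Nd5 averaged 15.9% ± 6.33 and 13.9% ± 3.70 at 24 h, and 33.0% ± 9.84 and 32.8% ± 8.64 at 48 h. In these 3 mRNAs the groups of PASS reads overlapped at both times. With SUFFCLIP reads added, the mt-Nd5 shares at 48 h were 23.0% and 21.5% in siCtl and 17.6% and 20.0% in siLarp1, and the mt-Nd4 shares 2.11% and 1.94% in siCtl and 4.71% and 2.75% in siLarp1, both without overlap. The log2 odds differed by -0.30 (SE 0.72, limma adjusted p = 0.995) in mt-Nd5 and by 0.82 (SE 0.59, limma adjusted p = 0.812) in mt-Nd4.

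For the share under 30 nt, 0 of 6 mt-Nd mRNAs passed the adjusted threshold at 24 h, where 2 of 2589 genes did (0.0772%), 0 at 48 h, where 0 of 2436 did (0%), and 0 over both times, where 28 of 2139 did (1.31%). At an unadjusted p under 0.05 there were 0 of 6 at 24 h and 1 (mt-Nd3) at 48 h, against 15.1% and 6.81% of all genes, with 0 of 6 over both times (12.9%) and 1 (mt-Nd3) for the difference between times (6.26%). The median log2 odds difference of the members was -0.13 at 24 h, beside 0.63 over all genes, of which 80.0% were above 0. Adding 0.5 to the tallies can raise this value for genes with few reads in the shallower siLarp1 libraries at 24 h. How much it did so was not tested. With nothing added, pooled nuclear protein-coding tails under 30 nt took 2.22%, 2.45% and 2.17% in siCtl at 24 h. In siLarp1 they took 2.67%, 3.26% and 2.64%. Groups without overlap at 48 h were found in 3 of 6 members, higher in mt-Nd1 and mt-Nd3 and lower in mt-Nd6, where 22.2% of all genes had none, and in 0 of 6 at 24 h, against 8.77%. With SUFFCLIP reads added this count at 48 h was 6 of 7, against 22.6% of all genes, higher in mt-Nd1, mt-Nd3, mt-Nd4 and mt-Nd4l and lower in mt-Nd5 and mt-Nd6, and at 24 h 0 of 7, against 9.03%. Since mt-Nd4l shares molecules with mt-Nd4 and mt-Nd5 with mt-Nd6, these are not 6 independent values. With 2 against 2 libraries no exact p under 0.333 is possible. Genes with few reads can lack such tails in libraries of both groups, which leaves fewer genes without overlap in this class. For RPM, median tails and tails of 30 to 90 nt, 33.6%, 33.8% and 35.1% of all genes had no overlap at 48 h. With SUFFCLIP reads added it was 33.2%, 34.8% and 36.0%. Thus 22.2% and 22.6% may be too low a comparison for members with many reads, which was not tested. Shares of 30 to 90 nt largely mirror those under 30 nt, since 1.22% to 3.04% of mt-Nd tails in a library were over 90 nt. For tails of 30 to 90 nt, 0 of 6 passed at 24 h, where 0 of 2589 genes did (0%), and 0 at 48 h, where 0 of 2436 did (0%). Unadjusted p-values were under 0.05 in 1 of 6 (mt-Nd3) at 24 h, against 5.87% of all genes, and in 2 of 6 (mt-Nd1 and mt-Nd3) at 48 h, against 6.81%. Over both times this was 1 of 6 (mt-Nd1), against 8.84%, and for the difference between times 2 of 6 (mt-Nd1 and mt-Nd3), against 6.31%. Groups did not overlap in 1 of 6 members at 24 h (mt-Nd3, 12.1% of all genes) and in 3 of 6 at 48 h (mt-Nd1, mt-Nd3 and mt-Nd6, 35.1% of all genes). With SUFFCLIP reads added it was 1 of 7 (mt-Nd3, 12.0% of all genes) and 4 of 7 (these and mt-Nd5, 36.0% of all genes).

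**Figure D5:**
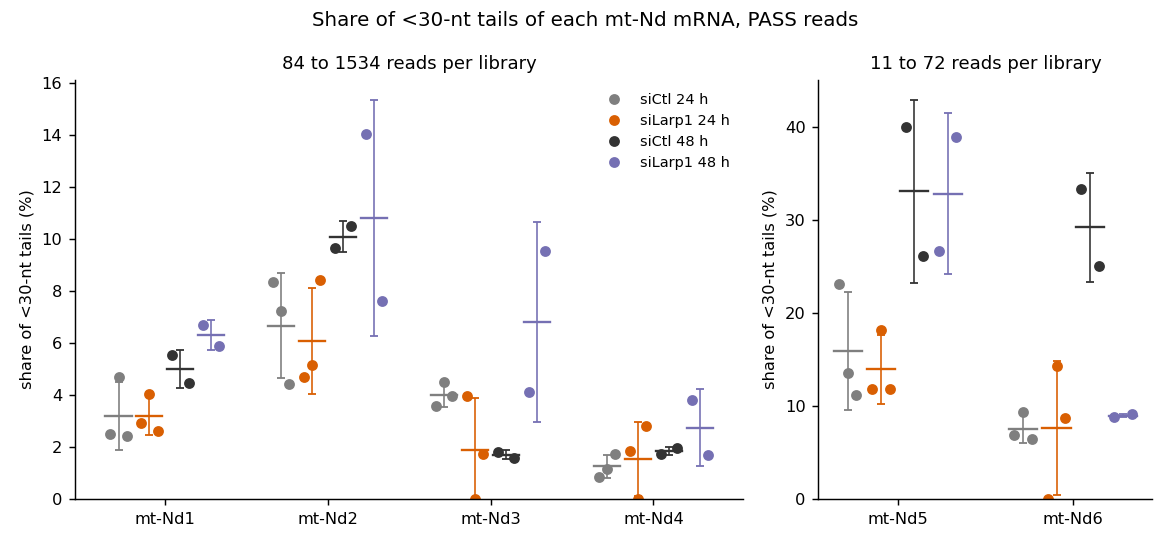
Share of tails under 30 nt (y axis, %) in 6 mt-Nd mRNAs, with 1 point per library, group means as lines and SD as bars, on separate scales for the mRNAs with 84 to 1534 and with 11 to 72 PASS reads per library. siLarp1 lies above siCtl at 48 h in mt-Nd1 and mt-Nd3 and below it in mt-Nd6, and none of these differences passed the adjusted threshold.

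Adding SUFFCLIP reads brought mt-Nd4l into the comparison, with 112 to 558 reads in a library. It was at 1247, 875 and 1248 RPM in siCtl and 1104, 932 and 1245 RPM in siLarp1 at 24 h, and at 1187 and 820 RPM in siCtl and 956 and 881 RPM in siLarp1 at 48 h. Library 21 was lowest in both treatments at 24 h, and the groups overlapped at both times. The log2 fold change was -0.02 (SE 0.12, limma adjusted p = 0.991) at 24 h and -0.06 (SE 0.17, adjusted p = 0.974) at 48 h.

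Median tails of mt-Nd4l were 52.4, 51.5 and 54.0 nt in siCtl and 50.1, 49.8 and 54.0 nt in siLarp1 at 24 h, and 50.4 and 51.4 nt in siCtl and 50.3 and 48.5 nt in siLarp1 at 48 h. These are largely the tails of the molecules shared with mt-Nd4, and the values of the genes are not independent. At 48 h the siLarp1 medians lay below the siCtl medians, where 34.8% of all genes had groups without overlap. The difference of -1.46 nt had an exact permutation p of 0.333, the smallest that 2 against 2 libraries allow.

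With SUFFCLIP reads mt-Nd5 averaged 748 ± 169 RPM in siCtl and 815 ± 28.7 in siLarp1 at 24 h (SD, n = 3), and 948 ± 256 and 948 ± 61.4 RPM at 48 h (n = 2). mt-Nd6 was at 765, 570 and 774 RPM in siCtl and at 781, 840 and 782 RPM in siLarp1 at 24 h. Each siLarp1 library was above each siCtl library, where 10.9% of all genes had groups without overlap. The exact permutation p was 0.1, the smallest possible, and the log2 fold change was 0.20 (SE 0.12, limma adjusted p = 0.936). At 48 h mt-Nd6 was at 1079 and 751 RPM in siCtl and 980 and 834 RPM in siLarp1, and overlapped.

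The molecules that aligned to both mt-Nd5 and mt-Nd6 were also compared over all quality tags, without a choice between the genes. Their median was 42.7, 44.3 and 47.6 nt in siCtl and 44.9, 41.8 and 45.3 nt in siLarp1 at 24 h, and 40.8 and 42.2 nt in siCtl and 40.7 and 39.8 nt in siLarp1 at 48 h. Tails under 30 nt took 13.8%, 12.1% and 6.06% in siCtl and 12.6%, 9.17% and 9.09% in siLarp1 at 24 h. At 48 h they took 17.9% and 19.7% in siCtl and 16.0% and 17.1% in siLarp1, which did not overlap (exact permutation p = 0.333). The share was higher in all 4 libraries at 48 h than in all 6 at 24 h, in both treatments. The molecules that aligned to both mt-Nd4l and mt-Nd4 had longer median tails (48.6 to 54.2 nt) in each of the 10 libraries. At 24 h, 2 of 469, 5 of 378 and 11 of 670 of them were under 30 nt in siCtl (0.43%, 1.32% and 1.64%) and 5 of 174, 4 of 167 and 6 of 241 in siLarp1 (2.87%, 2.40% and 2.49%). At 48 h it was 4.76% and 4.37% in siCtl and 3.85% and 3.76% in siLarp1. The siLarp1 shares thus lay above the siCtl shares at 24 h (exact permutation p = 0.1, the smallest possible) and below them at 48 h (exact p = 0.333, the smallest possible), on 2 to 11 reads of the class in a library.

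The neighbours of the mt-Nd mRNAs in the same pathway also gave no call in abundance within a time point. Of the other mitochondrial mRNAs 5 of 6 were tested, 0 passed at 24 h or 48 h, and their log2 fold changes ran from -0.04 to 0.14 and from -0.06 to 0.10. Before adjustment 1 of these had p under 0.05 at 24 h, against 5.43% of all genes. It was mt-Co2, a subunit of cytochrome c oxidase, named after its value was seen (log2 fold change 0.14, SE 0.04, unadjusted p = 0.00274, limma adjusted p = 0.865). Nuclear complex I genes were listed by symbol alone, as those starting with Nduf without the assembly factors. Whether each product is a complex I subunit was not checked. Of 41 genes so listed 38 were tested and 0 passed in either direction at 24 h, 48 h or over both times. Before adjustment, p was under 0.05 for 2 at 24 h, both higher, and for 3 at 48 h, of which 1 was higher and 2 were lower, against 5.43% and 4.81% of all genes. Those with the most reads were Ndufa4 (log2 fold change 0.19, SE 0.13, at 24 h and 0.13, SE 0.19, at 48 h), Ndufa7 (0.02, SE 0.14, and 0.51, SE 0.19) and Ndufa2 (0.01, SE 0.14, and -0.12, SE 0.21). Of 29 genes for the synthesis, processing, tailing and decay of mitochondrial RNA, 18 had enough reads at 24 h and 9 at 48 h, and 0 passed. Slirp, whose protein binds and stabilizes mitochondrial mRNAs with LRPPRC, had the most reads and a log2 fold change of 0.08 (SE 0.17) at 24 h and -0.29 (SE 0.24) at 48 h. It was followed by Hsd17b10, a part of mitochondrial RNase P (-0.07, SE 0.22, and 0.12, SE 0.34), and Grsf1, a protein of mitochondrial RNA granules (0.51, SE 0.27, and 0.53, SE 0.31). The named nuclear genes had limma Benjamini-Hochberg adjusted p-values of 0.893 or more.

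The nuclear complex I genes were also compared for short tails. Their share of tails under 30 nt had a median log2 odds difference of 0.66 at 24 h and 0.90 at 48 h over 38 and 37 genes, with 0 called, beside -0.13 and 0.20 for the 6 mt-Nd mRNAs and 0.63 and 0.11 over all genes. Before adjustment 5 of these nuclear genes at 24 h and 6 at 48 h had p under 0.05, all higher, where 15.1% and 6.81% of all genes had such a p in either direction. Whether the lists differ was not tested.

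Across the 10 libraries the summed level of the mt-Nd mRNAs ran from 5728 RPM (siCtl library 25) to 9027 RPM (siLarp1 library 22). Of 1280 genes with at least 10 reads in every library, those whose log2 RPM correlated most with it were Trh (Pearson r = 0.905), Uqcr10 (0.8999), Rps27l (0.889), Aprt (0.865) and Ppp4c (0.864), all over the same 10 libraries and their depths. mt-Cytb followed in rank 8 (r = 0.854), while mt-Co1 had r = -0.603. These are descriptions across libraries that differ in time, treatment and pool. Reads of the mt-Nd mRNAs also carried a less certain barcode than others, since 34.1% to 44.1% of them had a barcode confidence under 0.9 in a library, against 11.7% to 15.5% of nuclear protein-coding reads. Its part in the results above was not tested beyond a comparison restricted to reads at 0.9 or more, in which 0 of the mt-Nd mRNAs passed in any measure.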

How the data were processed

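The members and gene lists were chosen with earlier results of these data known. The authors called bases with Guppy, separated barcodes with Deeplexicon, aligned reads with Minimap2 (2.20) to mm10 transcripts of GENCODE and estimated tails with Nanopolish. The deposited table holds 2652217 alignments of 2577272 reads and 1 line per alignment, giving the tail in nt and its tag. As deposited, barcode confidence is a fraction, and mapping quality is a score of the aligner. Its position columns are in transcript bases, as deposited. The study itself set mitochondrial transcripts aside. Libraries were mapped to groups by name; their labelled replicate numbers are not known here.

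Reads tagged PASS were tallied per gene and library (Python 3.11.15, pandas 2.3.3). Transcript sequence and positions came from the GENCODE annotation of GRCm38, the build called mm10. limma 3.58.1 in R 4.3.3 tested all genes with at least 30 reads at a time point (for tails also 5 in each library), on voom values for abundance, on median tails, and on log2 odds with 0.5 added for tail classes, within each time point and over all 10 libraries for the mean effect and its difference between times. p-values were Benjamini-Hochberg adjusted over all genes tested, with 0.05 as threshold, and intervals are 95%. Exact two-sided permutation tests stand beside them; with 3 against 3 libraries their smallest p is 0.1 and with 2 against 2 it is 0.333. The fits were tested on simulated data. Each replicate pair differed beyond counting noise. The 24 h libraries of the same number shared a barcode and deviated together (r = 0.163, 0.419 and 0.467 over 456 genes). Whether this reflects paired cells or the shared barcode was not tested. At 48 h barcodes differed and r was 0.0894. The main fits and exact tests left the number out. The replicate block used it at both times. The text names all 7 members, Larp1, the genes called in each list or otherwise the 3 with the most reads, and the 5 genes most correlated with the summed members. mt-Cytb and mt-Co1 were named there after their values were seen. Alternatives covered tags, barcode and mapping quality, read minima, scaling, weights, tail measures and limits, the replicate block and leaving out each library; PASS or SUFFCLIP tags, each 48 h run alone and shares in percentage points were added after seeing the data.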

Additional observations from a re-analysis of the deposited data

Results flagged for a closer look

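mt-Nd3 was singled out because its share of 30- to 90-nt tails moved in opposite directions at the 2 time points in all libraries. The siLarp1 effect at 48 h minus that at 24 h was -1.82 in log2 odds (SE 0.50, limma Benjamini-Hochberg adjusted p = 0.692 over 2139 genes), and 0 of these genes passed (135 at an unadjusted p under 0.05). At 24 h the siLarp1 libraries held 111 of 112, 121 of 126 and 224 of 234 reads in this class, and at 48 h 158 of 171 and 75 of 84. In the first 48 h run the shares were 93.8% and 93.6% in siCtl and 94.2% and 91.4% in siLarp1, which overlapped. In the second run they were 100% of 30 and 91.8% of 49 reads in siCtl and 89.6% of 67 and 84.6% of 26 reads in siLarp1, which did not. Groups of 3 or fewer libraries were not searched for outlying samples.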

How the results depend on the processing

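No mt-Nd mRNA passed the adjusted threshold for abundance, median tail, tails under 30 nt or tails of 30 to 90 nt at 24 h, 48 h or over both times, nor for the difference between times, and this held in 318 of 320 recounts under the alternatives. The exceptions were both mt-Nd3 in tails of 30 to 90 nt. With the replicate block 1 mt-Nd mRNA passed for the difference between times (log2 odds -1.82, limma adjusted p = 0.00711); the block changed no other call on a member. In the second 48 h run alone 1 passed at 48 h (log2 odds -1.97, limma adjusted p = 0.0408), among 3 of 676 genes; with the first run alone the value was -0.16. Of 1872 estimates for single mRNAs under the alternatives, 286 had another sign than the main value, and none of those had passed. Without any 1 library no mt-Nd mRNA was called. In the main fits 0 of all genes tested passed for abundance or median tail within a time point, and Larp1 was not called in abundance there. A count of 0 members in such fits is thus little evidence that nothing changed. The recounts use the same libraries and do not show how small a difference could have been seen. With all quality tags the mean share of reads on the mt-Nd mRNAs was 1.07% against 0.743% for PASS reads; the mean of the median tails of mt-Nd1, mt-Nd2, mt-Nd3 and mt-Nd4 was 49.5 nt with PASS reads, 49.4 nt with all tags and 49.1 nt at a mapping quality of at least 10. That last filter left no mt-Nd3 reads to test. With shares in percentage points and nothing added, the difference for mt-Nd3 tails under 30 nt was -2.11 (SE 1.10) at 24 h and 5.11 (SE 2.43) at 48 h. For mt-Nd3 tails of 30 to 90 nt it was 3.17 (SE 2.76) at 24 h and -3.34 (SE 4.77) at 48 h. The 48 h effect minus the 24 h effect was -6.51 (SE 4.90, limma unadjusted p = 0.189). The low unadjusted p-values of this class thus depended on the log2 odds scale. With 11 to 72 PASS reads in a library, mt-Nd5 and mt-Nd6 allow only large differences to be seen, and 2 libraries per group at 48 h cannot give an exact p under 0.333.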
